A study of Drosophila melanogaster with 9 samples.

Results

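The microRNAs (miRNAs) of the carcass of Canton-S flies were compared with those of Canton-S ovaries. Carcass and ovaries were represented by 1 small RNA library each, which are 2 of the 5 small RNA libraries and of the 9 samples of the series. The comparison covered all 465 mature miRNAs of the deposited count table, each taken once. The series was built around the miR-310 cluster of Drosophila melanogaster. Its other libraries were small RNAs of Canton-S testes, Z56 ovaries and Z56 testes, and testis mRNA of cluster mutants and controls. Canton-S is a wild-type laboratory strain, and Z56 is a second strain named only by that label. Both Canton-S samples came from untreated adults 3 to 5 days old, raised at 25 °C. The labels give neither the sex of the carcass flies nor the number of animals pooled, and they do not say which organs were removed from the carcass.

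miRNAs are short RNAs cut from hairpin precursors. Each hairpin can release a mature strand from its 5p and its 3p arm, and a strand loaded into Argonaute represses messenger RNAs that pair with its seed near the 5′ end. In flies, several miRNAs mark a tissue: miR-1 is a muscle miRNA, miR-124 a neuronal one, and the miR-318 and miR-994 pair and miR-989 are known from the follicle cells that surround the oocyte. A carcass holds body wall, muscle, fat body and, where head or nerve cord remain, nervous tissue, whereas an ovary holds germ cells, follicle cells and a thin muscle sheath.

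The carcass library held 12306695 reads over the mature miRNAs and the ovary library 398044. Levels are given as RPM, the reads of a miRNA per 1000000 miRNA reads of its library. A count of 0 allows up to 3 reads, or 0.244 RPM in carcass and 7.54 RPM in ovaries. With 1 library a side there is no replicate spread and no test, so each difference describes these 2 libraries. The 95% intervals are exact and cover counting error only. In bulk tissue, fewer cells of a type and less RNA per cell cannot be told apart. Of the 465 miRNAs, 148 had no read in either library, 176 were detected in both, and 139 reached 30 RPM in at least 1 of the 2. That level is close to 4 times the limit that 0 reads set in the ovary library. Of the 139, 63 reached it in both libraries, 32 in carcass alone and 44 in ovaries alone. For a miRNA that reached it in 1 library alone the filter fixes the direction with library totals. Counts of calls over lists therefore describe the members and support nothing.

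In summed level, the follicle cell list stood higher in ovaries, and the muscle, nervous system and let-7 complex lists higher in carcass. The follicle cell list (miR-318, miR-989 and miR-994, 6 arms) summed to 53258 RPM in ovaries and to 2.03 RPM in carcass, where 3 of the 6 arms were at 0. The muscle list (miR-1 and miR-133, 4 arms) summed to 531185 RPM in carcass and 76331 RPM in ovaries, where 3 of the 4 arms were at 0. The nervous system list summed to 158720 RPM in carcass and 70078 RPM in ovaries, and the let-7 complex to 85881 and 26316 RPM. Some members of the nervous system list stood higher in ovaries, as described below. Of 46 arms of testis clusters, 18 had no read in carcass and 30 had none in ovaries. Together they made up 104 RPM in carcass and 575 RPM in ovaries, against 109596 RPM in Canton-S testes. Because 0 reads allows 0.244 RPM in carcass and 7.54 RPM in ovaries, the counts of arms at 0 cannot be compared between these libraries.

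A few miRNAs filled each library. In carcass, miR-1-3p alone took 53.1% of the reads (95% interval 53.07% to 53.13%), and the 5 most abundant miRNAs took 87.0%. After it came miR-34-5p, which in flies protects the ageing brain, at 13.2%, then miR-184-3p at 9.78% and let-7-5p at 8.50%. In ovaries, miR-184-3p, which is needed for egg production, took 39.3% (39.1% to 39.4%) and miR-275-3p 22.1% (21.9% to 22.2%). The muscle miRNA miR-1-3p came next there with 7.63% (7.55% to 7.72%), followed by miR-989-3p with 4.39% and let-7-5p with 2.60%. Of the 10 most abundant miRNAs of each tissue, 6 were the same: miR-1-3p, miR-34-5p, miR-184-3p, let-7-5p, miR-275-3p and miR-33-5p.

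**Figure D1:**
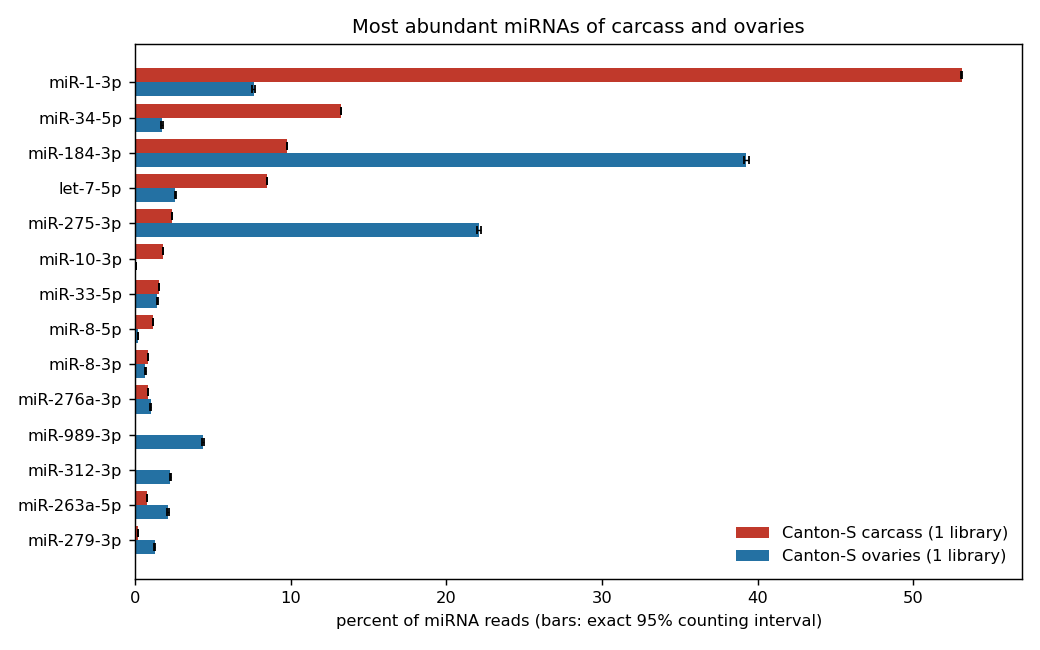
Percent of miRNA reads (linear axis) of the 14 miRNAs among the 10 most abundant of Canton-S carcass or ovaries, 1 library each; black bars are exact 95% counting intervals. miR-1-3p fills 53.1% of carcass and 7.63% of ovaries, and miR-184-3p fills 9.78% of carcass and 39.3% of ovaries.

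Because so few miRNAs hold so many reads, the ratio of a miRNA between the libraries depends on the scaling. Relative to library totals, the TMM method multiplied every carcass to ovaries ratio by 2.84. The median ratio of the 63 miRNAs that reached 30 RPM in both libraries multiplied it by 1.35, and totals without miR-1-3p and miR-184-3p by 1.43. The median log2 ratio of carcass over ovaries across the 139 miRNAs was -1.18 with library totals and 0.33 with TMM. Folds below use library totals, and calls that held under all 4 scalings are marked as such.

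With library totals, 37 of the 139 miRNAs (26.6%) were at least 4-fold higher in carcass and 55 (39.6%) at least 4-fold higher in ovaries. The other 47 differed by less. All 37 carcass miRNAs passed the fold under every scaling (26.6%), as did 35 of the ovary miRNAs (25.2%). The other scalings all raised the carcass to ovaries ratio, so only calls toward ovaries could be lost. With TMM the split was 49 in carcass and 35 in ovaries. The direction of 20 miRNAs flipped between scalings. None of the 37 or the 55 could flip, because the largest shift between scalings, 2.84-fold, is smaller than 4-fold. The 37 held 71.0% of carcass reads and 9.70% of ovary reads, and the 55 held 12.8% of carcass reads and 77.6% of ovary reads.

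**Figure D2:**
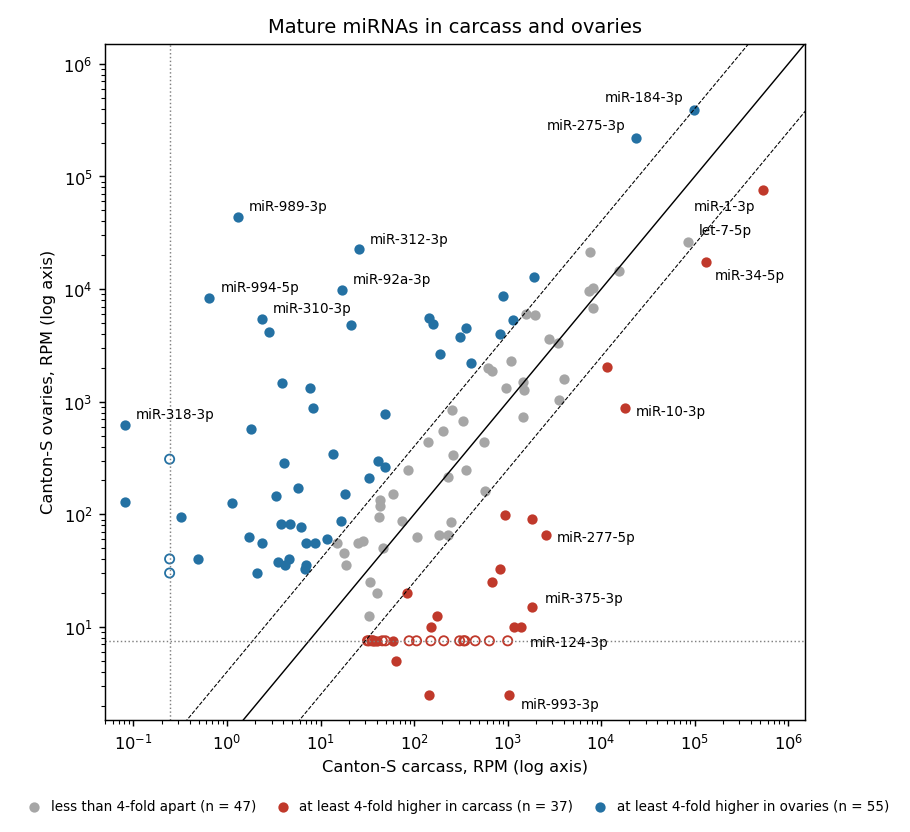
RPM of the 139 miRNAs that reached 30 RPM in carcass (horizontal, log axis) or ovaries (vertical, log axis), 1 library each; the solid line marks equal levels, dashed lines a 4-fold difference, dotted lines the 3-read limit, and open circles miRNAs with 0 reads in 1 library, drawn at that limit. The 55 blue points reach far to the left of equality (miR-989-3p, miR-994-5p, miR-318-3p), while the 37 red points include miR-1-3p and miR-34-5p at the top of the range and many miRNAs at the ovary limit.

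Between these 2 libraries, the miRNAs nearly confined to ovaries were mostly those of the follicle cells and of the miR-310 cluster. The cluster was not confined to ovaries in the series. With miR-92a and miR-92b its arms summed to 51321 RPM in Canton-S ovaries, 34430 RPM in Canton-S testes and 58830 RPM in Z56 testes. With library totals, 18 of the 139 miRNAs (12.9%) were at least 100-fold higher in ovaries, and 12 (8.63%) were so under all scalings. Outside the follicle cell and miR-310 cluster arms, the 18 held miR-92a-3p, miR-92b-3p, miR-962-5p, miR-963-3p and miR-282-5p. miR-963-3p, with no carcass read, was at least 124-fold higher in ovaries and miR-282-5p 106-fold. With TMM these folds were 43.6 and 37.3. miR-989-3p, which acts in the migration of the border cells of the egg chamber, had 17473 reads in ovaries and 16 in carcass. These counts correspond to 43897 and 1.30 RPM, a 33764-fold difference (20786 to 59085). miR-994-5p had 3335 reads in ovaries and 8 in carcass, or 8378 and 0.6501 RPM, a 12889-fold difference (6534 to 29879). Its neighbour in the genome, miR-318-3p, had 249 reads in ovaries and 1 in carcass, for a ratio of 7699 (1369 to 305283). The minor arms had no carcass read at all. miR-989-5p, with 123 ovary reads, was at least 1268-fold higher in ovaries, and miR-994-3p, with 16, at least 165-fold. All 5 follicle cell arms that reached 30 RPM did so in ovaries alone, which fixes their direction with library totals. All 5 passed 4-fold under all scalings, against 25.2% of all 139.

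The miR-310 cluster holds 4 neighbouring genes, miR-310 to miR-313, whose 3p strands have the seed of miR-92a and miR-92b. Of the 12 arms of these 6 genes, 11 reached 30 RPM, 10 of them in ovaries alone, which fixes their direction with library totals. All 11 were at least 4-fold higher in ovaries under all scalings, against 25.2% of all 139. miR-312-3p was the most abundant, with 22721 RPM in ovaries and 25.8 RPM in carcass, an 882-fold difference (789 to 990). miR-310-3p stood at 5452 and 2.36 RPM (2314-fold, 1606 to 3463) and miR-311-3p at 4173 and 2.84 RPM (1467-fold, 1051 to 2114). In ovaries, miR-313 differed from its neighbours in that its 5p arm was the abundant one, with 524 reads against 51. miR-313-5p stood at 1316 RPM in ovaries and 7.72 RPM in carcass (171-fold, 137 to 215), while miR-313-3p had 51 ovary reads and 1 carcass read (ratio 1577, 271 to 63487).

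The relatives outside the cluster were also higher in ovaries. miR-92a-3p had 9856 RPM in ovaries and 16.9 RPM in carcass, 583-fold (507 to 674), and miR-92b-3p 4751 and 21.4 RPM, 222-fold (195 to 254). Summed over the 6 strands with this seed, the seed family had 47080 RPM in ovaries and 69.3 RPM in carcass, a 679-fold difference (634 to 728). Within that sum, miR-312-3p made up 48.3% of the ovary reads and 37.2% of the carcass reads. miR-92a-3p and miR-92b-3p together exceeded it in carcass, with 24.4% and 30.8%.

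**Figure D3:**
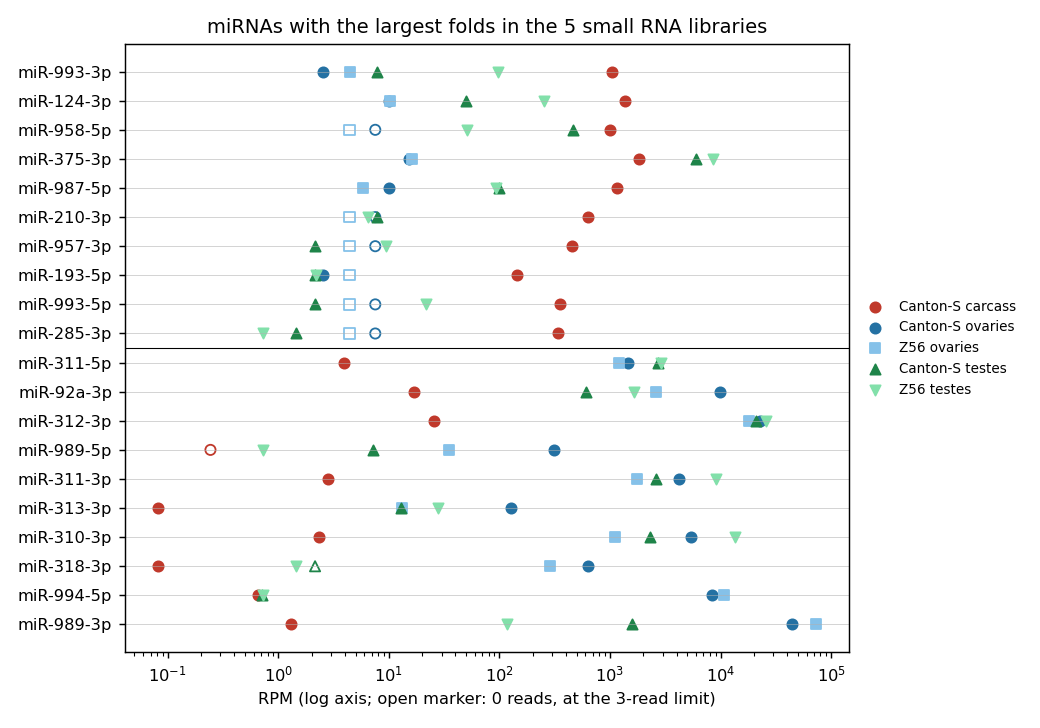
RPM (log axis) in each of the 5 small RNA libraries for the 10 miRNAs with the largest fold toward carcass (upper block) and the 10 with the largest fold toward ovaries (lower block); open markers are 0 reads, drawn at that library's 3-read limit. The pick by fold sets carcass (red) apart from Canton-S ovaries (blue) in every line. Z56 ovaries (light blue), not used for the pick, lie on the same side of carcass. The miR-310 to miR-312 arms and miR-375-3p are high in testes as well.

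The Z56 ovary library, another strain and also 1 library, gives a second value for the ovary side against the same carcass library. miR-989-3p had 73378 RPM there, miR-994-5p 10691 RPM and miR-318-3p 284 RPM. The minor arm miR-989-5p had 35.3 RPM in Z56 ovaries against 309 RPM in Canton-S ovaries, and was at least 145-fold higher in Z56 ovaries than in carcass. The cluster arms stood at 18058 RPM for miR-312-3p, 1116 RPM for miR-310-3p and 1760 RPM for miR-311-3p. miR-313-3p had 9 reads, for a ratio of 163 over carcass. Relative to Canton-S ovaries, miR-310-3p and miR-92a-3p (2578 RPM against 9856 RPM) were lower in Z56 and miR-989-3p was higher. In Canton-S testes, miR-312-3p had 20749 RPM and miR-989-3p 1592 RPM, while miR-994-5p had 1 read.

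Other ovary miRNAs differed less. The abundant miR-184-3p had 392590 RPM in ovaries and 97848 RPM in carcass, 4.01-fold (3.99 to 4.03), which is just past the 4-fold line. Its fold was 2.97 with median-ratio scaling and 1.41 with TMM. miR-275-3p, known from mosquitoes for a role in egg development, had 220782 and 23784 RPM, 9.28-fold (9.21 to 9.35) with library totals and 3.27-fold with TMM. The growth regulator bantam-3p stood at 6032 RPM in ovaries and 1591 RPM in carcass, 3.79-fold (3.63 to 3.96), just short of 4-fold. In the germ line list (miR-184 and bantam) 1 of 3 arms past 30 RPM was called toward ovaries and none under all scalings. Of all 139 miRNAs, 39.6% and 25.2% were so called, and the list is too small to set apart from these shares.

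The genes miR-9c, miR-306, miR-79 and miR-9b lie together in an intron cluster, and miR-9c limits germ cell number in flies. Of their 8 arms, 5 reached 30 RPM, 3 of them in ovaries alone. All 5 were called toward ovaries and 4 held under all scalings, against 39.6% and 25.2% of all. miR-9c-5p stood at 4881 RPM in ovaries and 161 RPM in carcass (30.3-fold, 28.5 to 32.3), miR-79-3p at 3786 and 311 RPM (12.2-fold, 11.5 to 12.9) and miR-9b-5p at 344 and 13.7 RPM (25.2-fold, 19.97 to 31.8). miR-306-5p, with 22 ovary reads, was 7.82-fold higher with library totals and 2.75-fold with TMM.

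The miR-2 and miR-13 family, which represses the cell death genes of the fly, was mixed. Of 10 arms past 30 RPM, 5 were called toward ovaries and 1 toward carcass, against 39.6% and 26.6% of all. miR-13b-3p had the largest ovary fold of its abundant strands, at 5487 RPM in ovaries and 145 RPM in carcass (37.8-fold, 35.5 to 40.3). miR-2a-3p and miR-2b-3p were 12.4-fold and 13.8-fold higher in ovaries, and reads of these near-identical strands may be split between them by the counting. The levels of miR-13b-3p, miR-2a-3p and miR-2b-3p were lower in Z56 than in Canton-S ovaries. miR-13b-3p was 12.4-fold higher there than in carcass, while miR-2a-3p (926 RPM) and miR-2b-3p (676 RPM) were 2.55-fold and 3.55-fold higher, short of 4-fold. miR-11-3p was 2.69-fold higher in ovaries with library totals, and TMM turned its direction.

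Members of the testis clusters made up little of either library. The 7 arms past 30 RPM all reached it in ovaries alone, which fixes their direction with library totals. Below that level, miR-985-3p stood higher in carcass, with 260 reads there and 1 in ovaries (21.1 and 2.51 RPM). miR-982-5p had 18 reads in ovaries and 220 in carcass (2.53-fold, 1.47 to 4.09, toward ovaries; its direction flipped with TMM). miR-964-5p had 60 and 223 reads (8.32-fold, 6.15 to 11.1), and miR-962-5p 50 and 14 reads (110-fold, 60.1 to 216). With Z56 ovaries miR-964-5p was 2.35-fold higher than in carcass, short of 4-fold, and miR-962-5p 24.6-fold. Other arms differed in direction between the ovary libraries, of 680094 reads in Z56 and 398044 in Canton-S. miR-982-5p had 202 reads in Z56 against 18 in Canton-S ovaries, and miR-984-5p 87 against 14. Fewer reads in Z56 were counted for miR-960-3p (16 against 33), miR-961-5p (5 against 12) and miR-963-3p (0 against 12). In Canton-S testes miR-982-5p, miR-964-5p and miR-962-5p had 21786, 15921 and 3456 RPM. The miR-309 cluster, switched on in the early embryo, was low in both tissues: 12 of its 14 arms had no ovary read, and miR-5-5p alone passed 30 RPM, with 151 RPM in ovaries and 58.9 RPM in carcass. Its 2.56-fold difference toward ovaries turned to carcass with TMM (1.11-fold), and was 12.0-fold toward ovaries with Z56 ovaries.

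The somatic miRNAs of the carcass fell into an abundant group and a group with few or no reads in the ovary library. Among the 37, 16 had no ovary read. miR-1-3p had 530976 RPM in carcass and 76331 RPM in ovaries, a 6.96-fold difference (6.88 to 7.04). miR-133-3p, a muscle miRNA in vertebrates, had 2556 reads in carcass and 0 in ovaries, at least 27.6-fold higher in carcass. Both muscle strands past 30 RPM were thus called with library totals, and the other scalings could only raise their ratios. Z56 ovaries had 80287 RPM of miR-1-3p and no read of miR-133-3p.

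Neuronal and sensory miRNAs were the longest carcass list. Of 32 arms, 23 reached 30 RPM, 11 of them in carcass alone and 2 in ovaries alone. With library totals 12 were called toward carcass and 4 toward ovaries, against 26.6% and 39.6% of all. Under all scalings 12 and 1 were called, against 26.6% and 25.2%. Of the calls, only those toward ovaries could be lost under the other scalings. miR-124-3p had 16947 reads in carcass and 4 in ovaries, or 1377 and 10.05 RPM, 137-fold (53.5 to 503). miR-210-3p, which maintains photoreceptors in flies, had 7853 reads against 0, at least 84.7-fold. miR-263b-5p, which protects sense organs from cell death, had 1858 reads against 0, at least 20.03-fold. The neuronal miR-1000-5p, with 458 and 3 reads, had a ratio of 4.94 (1.68 to 24.0).

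Members of that list also stood on the other side. The one called toward ovaries under all scalings was miR-279-5p, with 16 reads in ovaries and 6 in carcass, or 40.2 and 0.488 RPM (82.4-fold, 30.6 to 257; 27.1-fold with Z56 ovaries). miR-279-3p, which in flies acts in olfactory neurons and also in border cells, had 12898 RPM in ovaries and 1918 RPM in carcass, 6.72-fold (6.52 to 6.93) with library totals and 2.37-fold with TMM. Its neighbour miR-996-3p was 4.60-fold higher in ovaries and 1.62-fold with TMM. miR-34-5p, the second most abundant carcass miRNA, had 132292 RPM in carcass and 17395 RPM in ovaries, 7.61-fold (7.43 to 7.79), and 8668 RPM in Z56 ovaries, where the fold was 15.3.

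The genes miR-317, miR-277 and miR-34 neighbour each other, and their 6 arms had log2 ratios of carcass over ovaries from -0.36 to 5.31. The extremes belonged to miR-34-3p (262 RPM in carcass and 337 RPM in ovaries, direction flipping between scalings) and to miR-277-5p. miR-277, a regulator of branched-chain amino acid breakdown, was high in carcass on both arms. miR-277-5p had 2587 RPM in carcass and 65.3 RPM in ovaries (39.6-fold, 27.0 to 60.6), and miR-277-3p 1802 and 90.4 RPM (19.9-fold, 14.4 to 28.5; 42.3-fold with Z56 ovaries). miR-317-3p was close to even, with 1493 and 1259 RPM (1.19-fold toward carcass, 1.09 to 1.30; 3.37-fold with TMM). Of 16 groups of neighbouring genes (starts within 10000 bases of the next in RefSeq's Release 6 annotation) with at least 2 arms past 30 RPM, 12 had all such arms on one side of equality with library totals. In 0 of the 16 were arms called in opposite directions. Of all 139 miRNAs, 83 stood on the ovary side with library totals. Among the 139, 32 reached 30 RPM in carcass alone and 44 in ovaries alone, which fixes their side. These counts therefore do not show that neighbouring genes vary together.

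The metabolic list (miR-8, miR-14, miR-33, miR-277, miR-278 and miR-305) was spread around equality. All 12 arms passed 30 RPM, 10 of them in both libraries, and the median log2 ratio was 0.19. Of the 12, 3 were called toward carcass, near the share of all miRNAs (26.6%), and 1 toward ovaries, against 39.6%. miR-33-5p, tied to lipid metabolism, had 15480 RPM in carcass and 14378 RPM in ovaries, 1.08-fold (1.05 to 1.11), and 3.06-fold with TMM. miR-8-3p, which acts on insulin signalling in the fat body, had 8218 and 6826 RPM (1.20-fold, 1.16 to 1.25). The gut stem cell regulator miR-305-5p was the member called toward ovaries, with 3957 RPM there and 832 RPM in carcass, 4.76-fold with library totals and 1.68-fold with TMM. With Z56 ovaries it was 3.25-fold, short of 4-fold.

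The let-7 complex (let-7, miR-100 and miR-125), switched on by ecdysone signalling for adult development, lay toward carcass below the 4-fold line. let-7-5p had 84981 RPM in carcass and 26020 RPM in ovaries, 3.27-fold (3.20 to 3.33), and the 4 arms past 30 RPM ranged from 2.01-fold to 3.60-fold. With the other 3 scalings let-7-5p was 4.42-fold, 4.67-fold and 9.27-fold higher in carcass. Among the Hox cluster miRNAs, miR-10-3p had 18006 RPM in carcass and 872 RPM in ovaries, 20.7-fold (18.6 to 23.0), and miR-10-5p was 25.5-fold higher (14.9 to 47.9). miR-iab-4-5p, of the bithorax complex, had 25.2 RPM in carcass and 55.3 RPM in ovaries, and its direction flipped with TMM.

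**Figure D4:**
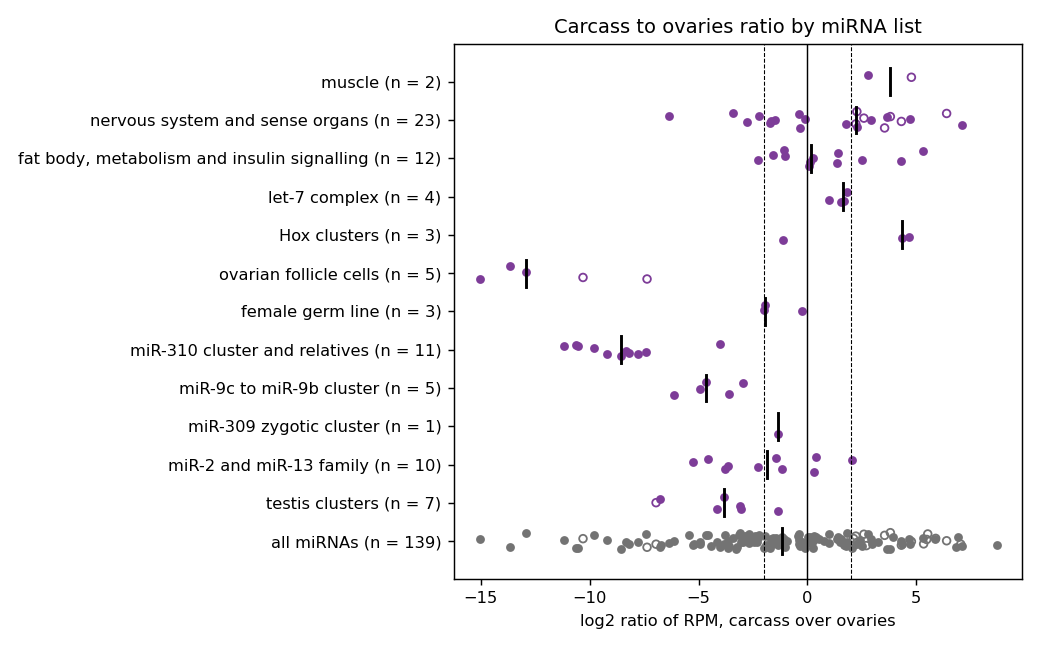
Log2 ratio of RPM, carcass over ovaries (horizontal), for members of 12 miRNA lists that reached 30 RPM in either library and for all 139; each point is 1 miRNA, open points are bounds from a count of 0, black ticks are medians and dashed lines a 4-fold difference. Members that reached 30 RPM in 1 library alone have their direction with library totals, as drawn here, fixed by that filter. The follicle cell list (median -12.91) and the miR-310 list (median -8.55) lie far to the left, and the muscle (3.79), Hox (4.37) and neuronal lists (2.23) to the right.

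The largest carcass folds belonged mostly to miRNAs outside these lists. With library totals 5 miRNAs (3.6%) were at least 100-fold higher in carcass: miR-993-3p, miR-124-3p, miR-958-5p, miR-375-3p and miR-987-5p. The same 5 were so under all scalings (3.6%), which could only raise their ratios. Because 0 reads allows 7.54 RPM in ovaries but 0.244 RPM in carcass, 100-fold is harder to reach toward carcass. The number past it therefore cannot be compared with that of ovaries. miR-993-3p had 12872 reads in carcass and 1 in ovaries (ratio 416, 74.7 to 16445). miR-958-5p had 12325 reads in carcass and 0 in ovaries, at least 133-fold. miR-375-3p, a pancreatic islet miRNA in mice, had 22404 and 6 reads (121-fold, 55.5 to 329), and miR-987-5p 14285 and 4 reads (116-fold, 45.1 to 424). The ovary side of these ratios rests on 0 to 6 reads, and the lower ends of the 4 intervals, for miR-993-3p, miR-124-3p, miR-375-3p and miR-987-5p, lie between 45.1 and 74.7, below 100.

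In the remaining carcass miRNAs among the 10 largest folds, miR-957-3p, miR-993-5p and miR-285-3p had no ovary read and were at least 59.7-fold, 46.4-fold and 44.9-fold higher in carcass. miR-193-5p had 1782 reads against 1 (ratio 57.6, 10.3 to 2278). Of the 5 miRNAs past 100-fold, miR-375-3p was higher in Canton-S testes (5935 RPM) than in carcass (1820 RPM), whereas miR-993-3p had 7.89 RPM in testes and 1046 RPM in carcass.

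Close relatives could stand on opposite sides. The seed families described here were chosen with the values known, and reads of near-identical strands (such as miR-9b-5p and miR-9c-5p, or miR-31a-5p and miR-31b-5p) may be split between them by the counting. miR-9a-5p, which acts in sense organ precursors, had 673 RPM in carcass and 25.1 RPM in ovaries (26.8-fold toward carcass, 14.6 to 55.9). Its relatives miR-9b-5p and miR-9c-5p were 25.2-fold and 30.3-fold higher in ovaries, all 3 under every scaling. miR-9a-5p made up 79.4% of the reads of this family in carcass (78.6% to 80.2%) and 0.478% in ovaries (0.230% to 0.878%), and these shares do not depend on the scaling.

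Shares also differed for miR-285-3p, miR-995-3p and miR-998-3p, which have a common seed, though here the main member was the same in both tissues. miR-285-3p held 26.3% of their carcass reads and none of their 3589 ovary reads, which allows up to 0.103% (upper 95% bound). miR-995-3p, with 8755 RPM in ovaries and 902 RPM in carcass, held 97.1% and 70.0%. Toward ovaries, miR-995-3p was 9.70-fold higher with library totals and 3.42-fold with TMM. For miR-998-3p these folds were 5.40 and 1.90, so neither ovary call held under all scalings. miR-263b-5p made up 1.95% of the miR-263 reads of carcass and none of 8500 in ovaries, where miR-263a-5p stood at 21354 RPM. By contrast, the shares within the miR-31 pair were alike, with miR-31a-5p at 73.0% in carcass (72.7% to 73.2%) and 72.5% in ovaries (71.3% to 73.7%).

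Arm usage, the 5p share of the reads of both arms of a precursor, is also free of scaling. It was measured for 38 precursors with at least 100 reads in each library. For 33 the major arm was the same in carcass and ovaries, and the median absolute difference was 1.48 percentage points. Another arm led in 5: miR-92a, miR-282, miR-965, miR-14 and miR-8. The 5p arm of miR-92a made up 74.3% in carcass (602 of its reads against 208; interval 71.2% to 77.3%) and 7.37% in ovaries (312 against 3923; 6.60% to 8.20%). For miR-282 the shift ran the other way, with 41.9% in carcass (35.6% to 48.3%) and 93.6% in ovaries (90.7% to 95.9%).

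The abundant miR-8 had 143148 reads of its 5p and 101137 of its 3p arm in carcass, and 808 and 2717 in ovaries, so that the 5p arm made up 58.6% (58.4% to 58.8%) and 22.9% (21.5% to 24.3%). Accordingly miR-8-5p was called toward carcass (5.73-fold, 5.35 to 6.15) and miR-8-3p was not. With Z56 ovaries miR-8-5p was 3.31-fold higher in carcass, short of 4-fold. miR-14, which limits cell death and fat storage in flies, had 79.0% in carcass and 40.8% in ovaries (38.3% to 43.3%). miR-965 had 88.3% in carcass and 43.8% in ovaries, and the interval in ovaries (34.8% to 53.1%) includes an even split. In Z56 ovaries the 5p share was 21.5% for miR-92a, 86.2% for miR-282 and 36.0% for miR-8. It was 74.5% for miR-14 and 75.8% for miR-965 there, so that in these precursors the 2 ovary libraries had different major arms.

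**Figure D5:**
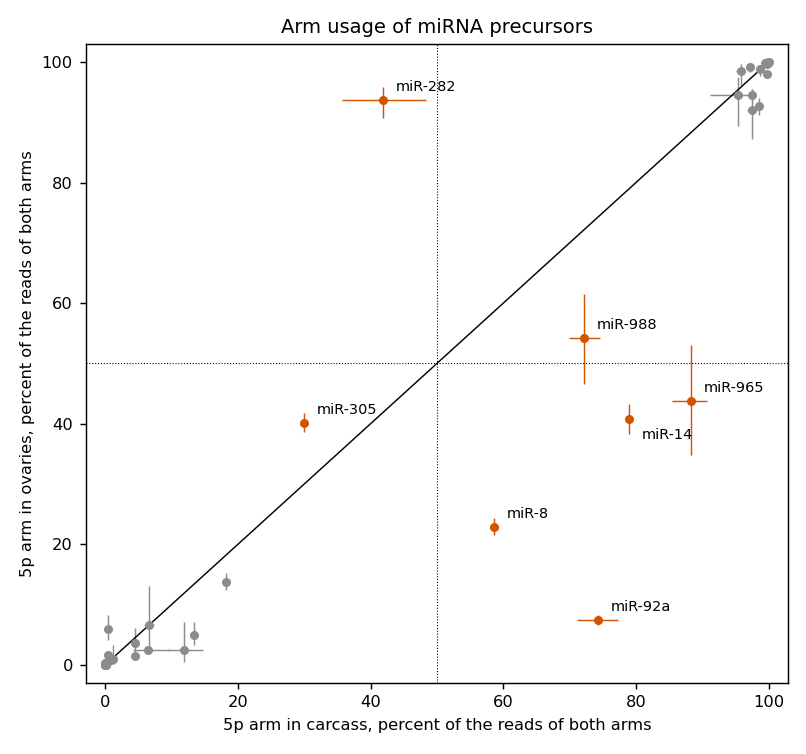
Share of the 5p arm (percent of the reads of both arms) in carcass (horizontal) and ovaries (vertical) for the 38 precursors with at least 100 reads in each library; bars are exact 95% counting intervals, dotted lines mark an even split, and orange points differ by over 10 percentage points. Most precursors sit in the corners on the line of equality, while miR-92a, miR-8, miR-14, miR-965 and miR-282 lie in the quadrants where the major arm differs.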

How the data were processed

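Small RNA libraries were 1 per strain and tissue. Per the file headers, the authors deposited read counts per mature miRNA and precursor, and beside them RPM, which differed by at most 0.005 from the count over the column total. The submitters' processing notes list TopHat, with no version. How miRNA reads were counted, how reads with several matches were treated, and against which build is not given in the sources used here. Among 476 rows, 9 names stood at several precursors. Such rows were reduced to the one with the highest count, and miR-276a-5p and miR-276b-5p, whose counts are identical, were joined, which left 465 miRNAs. RPM was recomputed from these counts. Ratios carry exact conditional and shares exact Clopper-Pearson 95% intervals, computed with scipy 1.17.1, for counting error only, as reads copied by PCR are not independent. A count of 0 was set at 3 reads of its library. TMM factors came from edgeR 4.0.16; no edgeR test was run, since each side had 1 library. The ratio and its calls were run on counts simulated with counting error only, at the totals of these 2 libraries. That checks the code and cannot show how the calls fare with spread between replicates. miRNAs were named if among the 10 most abundant of a tissue, the 10 largest folds per direction, or the 6 most abundant of a list past 30 RPM, with their cluster neighbours. Arms, seed families and other miRNAs were named after their values were seen. Of 256 precursors, 255 matched RefSeq genes. The members and lists were chosen with earlier results of these data known. The testis RNA-seq was not used.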

Additional observations from a re-analysis of the deposited data

How the results depend on the processing

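With 1 library a side nothing could be left out, and the spread between replicates is unknown. No paired analysis was possible because carcass and ovaries have 1 library each. The 37 miRNAs called toward carcass became 23 at a 10-fold threshold. The 55 called toward ovaries became 35 with TMM, 36 at a minimum of 100 RPM and 36 at a 10-fold threshold. The 5 miRNAs at least 100-fold higher in carcass became 12 with TMM, and 1 where the nearer bound of the counting interval had to pass 100-fold. Under the other settings these counts, and the 18 miRNAs at least 100-fold higher in ovaries, stayed within 1.5 times. Those settings were the other scalings and filters, summed precursor counts, the interval rule, a 2-fold threshold, Z56 ovaries in place of Canton-S ovaries and, added after seeing the data, the deposited RPM. The 5 precursors with another major arm were 7 at a minimum of 50 reads, 4 at 200 reads and 3 with Z56 ovaries (settings added after seeing the data). No called ratio of a named miRNA changed direction with summed precursor counts or Z56 ovaries, and the scalings shift too little to turn one. Ratios that were not called could turn. miR-276a-3p, among the 10 most abundant of carcass, had 8210 RPM there and 10310 RPM in Canton-S ovaries. With Z56 ovaries it was 5.40-fold higher in carcass. Depth limits the ovary side, where 0 reads allows 7.54 RPM.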

Other observations

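Mirtrons are miRNAs whose hairpins are short introns released by splicing. This class (miR-1003 to miR-1016, 23 mature strands of 14 precursors) was chosen after the values were seen. It summed to 618 RPM in ovaries (246 reads) and 173 RPM in carcass (2129 reads), and to 300.0 RPM in Z56 ovaries. The 3.57-fold ratio of the Canton-S sums was 1.26 with TMM. Of the 6 strands past 30 RPM, 5 reached it in ovaries alone, which fixes their direction with library totals. miR-1003-3p had 25 ovary reads and 21 carcass reads (36.8-fold, 19.8 to 69.1), and miR-1012-3p 31 and 77 reads (12.4-fold, 7.93 to 19.1; 4.47-fold with Z56 ovaries). miR-1010-3p was 7.23-fold higher in ovaries with library totals, 2.55-fold with TMM and 3.13-fold with Z56 ovaries. Below 30 RPM, miR-1012-5p stood higher in carcass, with 23.3 RPM against 15.1 RPM in ovaries, and miR-1004-5p had 147 carcass reads and 0 ovary reads.

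The muscle miRNAs of carcass did not keep their proportion in the gonads. Carcass had 2556 reads of miR-133-3p beside 6534562 of miR-1-3p. At that proportion the miR-1-3p reads of the other libraries would go with 11.9 reads of miR-133-3p in Canton-S ovaries and 21.4 in Z56 ovaries, where 0 were counted in both. Canton-S testes would have 99.6 and had 34, and Z56 testes would have 107 and had 37. Where the miR-1-3p of the gonad libraries came from was not tested.

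Both arms of miR-308 passed 4-fold, in opposite directions and under all scalings. miR-308-3p had 1035 reads in carcass and 8 in ovaries (4.18-fold toward carcass, 2.12 to 9.72; 3.81-fold with Z56 ovaries), and miR-308-5p had 29 and 22 reads (23.5-fold toward ovaries, 12.8 to 42.3; 8.74-fold with Z56 ovaries). The 5p share was 2.73% in carcass (1.83% to 3.89%), 73.3% in Canton-S ovaries (54.1% to 87.7%) and 48.3% in Z56 ovaries (29.4% to 67.5%). With 30 reads in Canton-S ovaries this precursor was below the minimum used for arm usage.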
